A study of Danio rerio with 24 samples.

Results

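The arrays described here are the 8 muscle arrays of a series of 24, the other 16 being liver and kidney. They were chosen by their tissue label, 4 from fish given LPS and 4 from fish given PBS. The 4 LPS arrays carried muscle RNA of adult wild-type zebrafish (*Danio rerio*) of 9 months, fed a normal diet and sampled 3 hours after an intraperitoneal injection of 10 μg of lipopolysaccharide (LPS). The 4 PBS arrays carried muscle RNA of fish of the same age and diet that had received an equal volume of phosphate-buffered saline (PBS). The RNA on each array was pooled from 3 fish, so the spread between arrays is a spread between pools and not between animals, and the labels call the 4 pools of a treatment biological replicates. The question was which genes of the muscle responded to LPS given into the body cavity, and as 0 genes passed the adjusted threshold the ranking of all genes is described.

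LPS is a component of the outer membrane of Gram-negative bacteria. In mammals it is bound by Toll-like receptor 4 and its adaptors, which free NF-κB from its inhibitors and switch on cytokines such as interleukin 1β and tumour necrosis factor, and then genes that end the response again, among them the inhibitors of NF-κB themselves. Fish respond to LPS too, although their receptors for it differ from those of mammals. Muscle in bulk holds muscle fibres together with vessels, connective tissue, blood and resident leukocytes, and in mammals with endotoxaemia the fibres themselves respond to circulating cytokines with changes in protein breakdown and fuel use. In RNA from whole tissue, fewer cells of a type and less RNA per cell cannot be told apart.

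A normalized signal below is the log2 of the background-corrected brightness of a probe minus the 75th percentile of its array, so 0 marks that percentile and 1 unit is a doubling. Before this step the arrays of the treatments differed. The raw 75th percentile lay between 738 and 1811 on the LPS arrays and between 379 and 732 on the PBS arrays, and the share of spots well above background, as the scanner software marks them, was 63.8 to 71.1% on the LPS arrays and 57.3 to 63.5% on the PBS arrays. Both measures were higher on every LPS array (exact permutation test, two-sided, p = 0.0286, the smallest that 4 against 4 can give). No spot was saturated. In a principal component analysis the first component held 47.9% of the variance and set PBS replicates 2 and 4, at 251 and 142, apart from the other PBS arrays and from the LPS arrays, which lay between -129 and 53.2. Values without these 2 arrays, a choice made after seeing the data, are given beside many of the list medians and for some genes. A gene or list without such a value may depend on these arrays too.

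Markers of the tissue were present on every array. The mean level over 36 fast skeletal muscle genes was 3.51 to 5.13 on the LPS arrays and 3.38 to 5.84 on the PBS arrays, against -3.34 to -1.24 on the liver arrays. Signal of other tissues was also present. Over 37 genes of the oocyte, such as the egg coat genes *zp2.3* and *zp3*, the level was 4.02, 3.79, 4.12 and 4.09 on LPS arrays 1 to 4, and 4.38, 1.29, 4.37 and 2.51 on PBS arrays 1 to 4. The 2 PBS arrays with little oocyte signal were thus those that the first component set apart. The hepatocyte list stood at 5.17 on LPS array 4 and at 1.17 to 1.71 on the other LPS arrays, against 1.90 to 3.48 on the PBS arrays. The level of none of 16 marker lists separated the treatments. In exact permutation tests, two-sided, p ran from 0.0857 for the intestine to 0.8, and was 0.748 or more after adjustment over the lists. The smallest p that 4 against 4 arrays can give is 0.0286, so a single list with full separation could not have passed after this adjustment. The adjusted values therefore do not show that the tissue make-up of the treatments was alike.

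**Figure D1:**
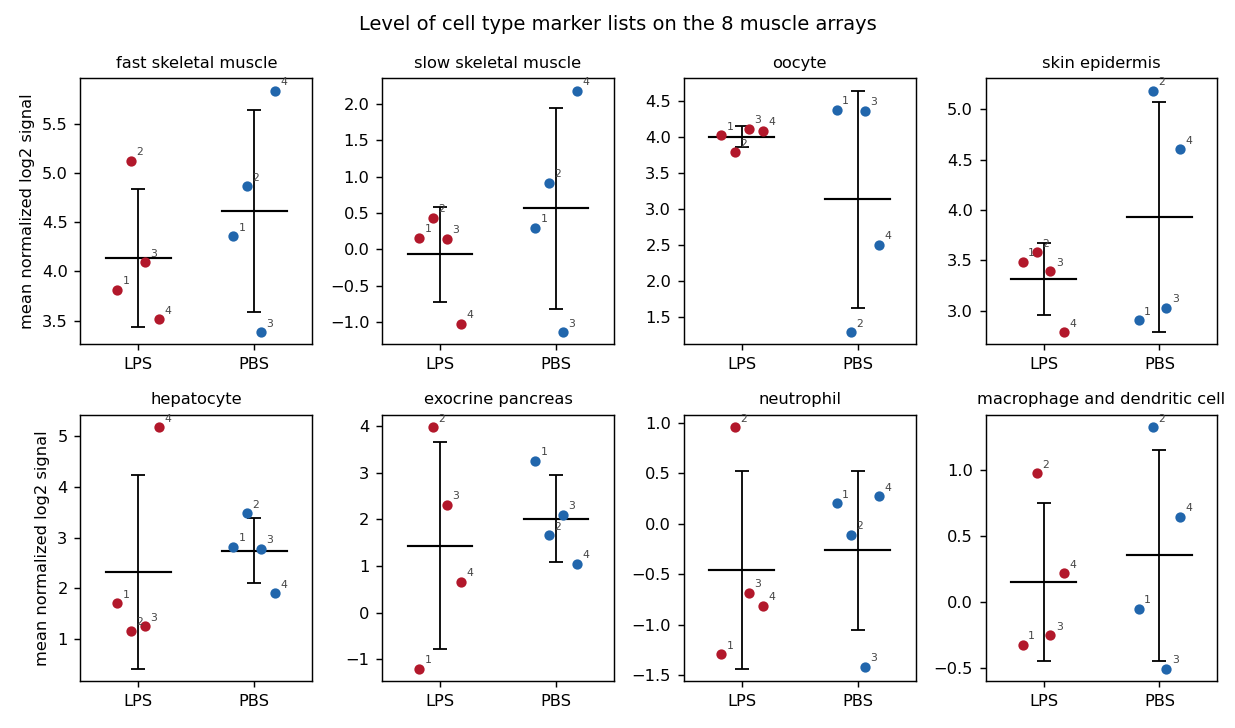
Mean normalized log2 signal of 8 cell type marker lists on each muscle array, with LPS arrays left and PBS arrays right in each panel; points are arrays numbered by replicate, lines are means and bars are 1 SD (n = 4). The oocyte list lay at 3.79 to 4.12 on the LPS arrays and at 1.29 to 4.38 on the PBS arrays, with PBS arrays 2 and 4 lowest, and PBS array 4 was highest for both muscle fibre lists.

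Of 40405 probes tested with limma, 0 had an adjusted p under 0.05, and the smallest was 0.352. Before adjustment 1235 probes had a p under 0.05, fewer than the 2020 that this threshold would pass if no probe differed. Of the 1235, 377 were higher after LPS and 858 lower. Under quantile normalization, which moved the median difference of all probes to -0.02 where the percentile shift gave -0.14, this split was 519 higher and 728 lower. Named genes, each represented by its probe of highest mean over the series, numbered 12082 among the probes tested. Their median log2 difference, LPS minus PBS, was -0.09, and 44.7% lay above 0. At an unadjusted p under 0.05, 99 genes were higher after LPS, which is 0.819% of those tested, and 204 were lower, which is 1.69%. The 4 LPS arrays all lay above the 4 PBS arrays for 73 genes (0.604%) and all below them for 179 (1.48%). The ranking below follows limma's moderated statistic and is a description, since no gene in it passed the adjusted threshold. It holds only named genes, each by 1 probe, and the probe with the smallest adjusted p, 0.352, is not among these.

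Of the highest 20 genes of this ranking, 11 were members of the 8 lists on cytokines, signalling and immune effectors described below, as were 3 of the lowest 20 and 197 of all 12082 genes. The lists were drawn up with earlier results of these data known, so these counts are a description. The size of the log2 difference ran from 1.45 to 3.93 among the highest 20 genes and from 1.27 to 2.82 among the lowest 20, and the groups did not overlap for 17 of the highest and 16 of the lowest. Without PBS arrays 2 and 4 all 20 of the highest genes stayed above 0, with a median of 2.99 in place of 2.398, and all 20 of the lowest stayed below 0, with a median of -1.56 in place of -1.82. In the ranking of these 6 arrays 18 of the highest 20 were among the highest 100 genes, and 6 of the lowest 20 were among the lowest 100. These 6 arrays, like the subsets below, are part of the arrays that ranked the genes. Where the groups did not overlap the direction could not turn, so the directions kept are a description and no separate support. The muscle arrays lay on 4 slides scanned on 2 days. On the slide that held 2 arrays of each treatment all 20 genes of either end kept their direction, with a median of 2.74 at the high end and -1.54 at the low end, and likewise on the day with 3 arrays of each (2.94 and -1.62). In the 1 pair that shared the remaining slide and day, LPS array 1 and PBS array 2, the direction was kept by 18 of the highest 20, the exceptions being *cd83* (-0.06) and *ccl35.1* (-0.31), and by all of the lowest 20.

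**Figure D2:**
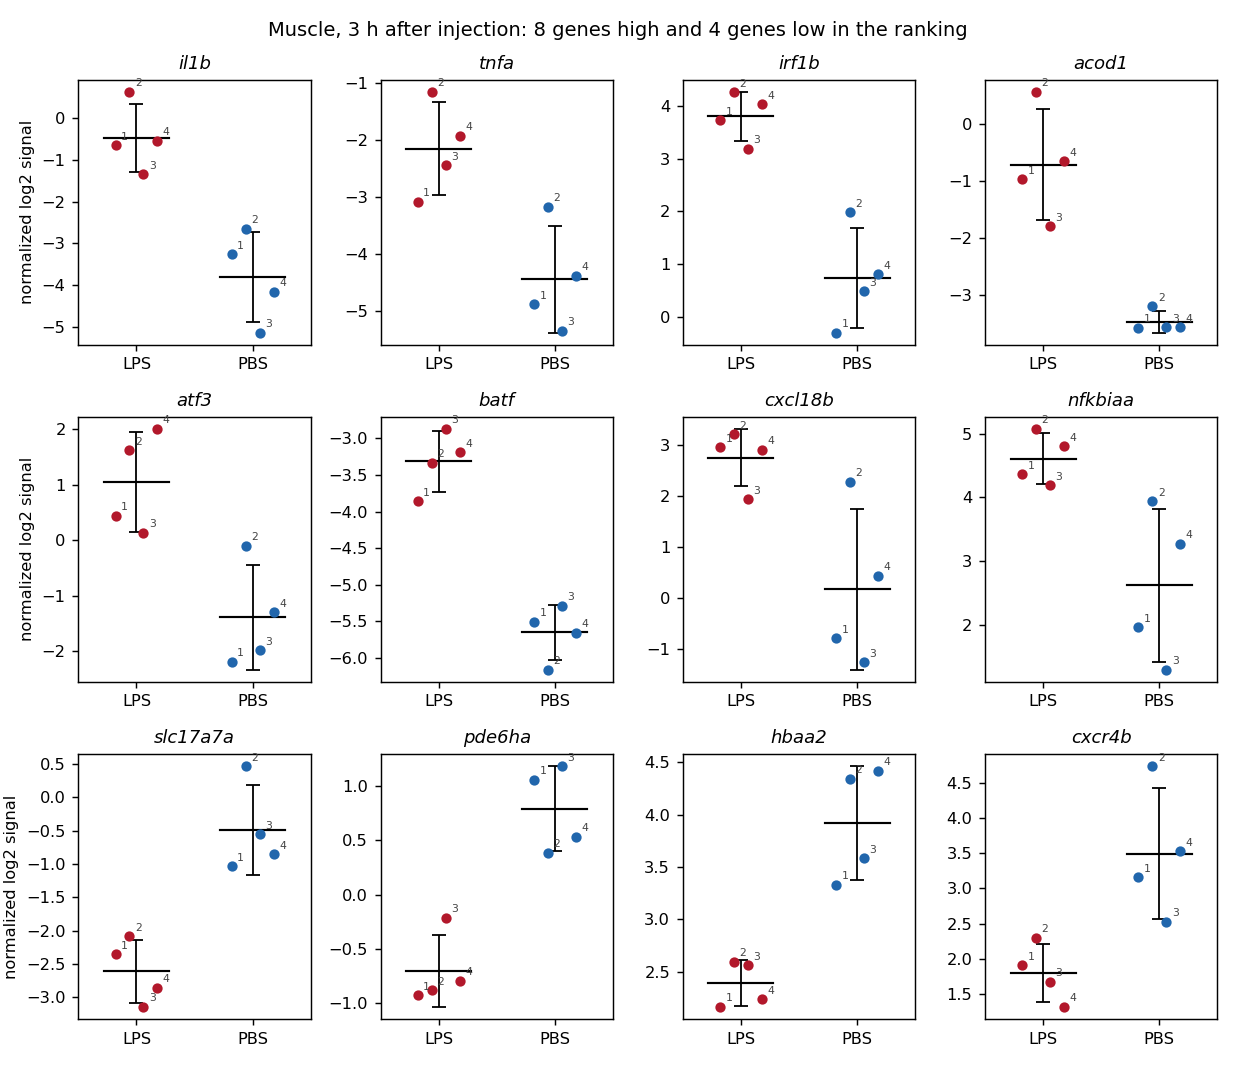
Normalized log2 signal of 8 genes from the high end and 4 from the low end of the muscle ranking, with LPS arrays left and PBS arrays right; points are arrays numbered by replicate, lines are means and bars are 1 SD (n = 4). Only *cxcl18b* overlaps between treatments, where PBS array 2 reached 2.28 and LPS array 3 stood at 1.94.

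Among secreted signals *il1b*, which encodes the cytokine interleukin 1β, stood at -0.65, 0.62, -1.34 and -0.54 on the 4 LPS arrays, against -3.27, -2.65, -5.13 and -4.15 on the 4 PBS arrays. The groups did not overlap and the log2 difference was 3.32 ± 0.62 (SE), or 10.0-fold, with an adjusted p in limma of 0.916. On 2 of the 4 PBS arrays the probe was not well above background. *tnfa*, the gene of tumour necrosis factor, measured -3.08, -1.15, -2.44 and -1.92 on the LPS arrays and -4.88, -3.17, -5.34 and -4.38 on the PBS arrays, where it was well above background on 1 array. Its lowest LPS value lay just above its highest PBS value, that of PBS array 2, and the log2 difference was 2.29 ± 0.59 (SE). *cxcl18b*, a fish chemokine that draws neutrophils, had 2.96, 3.22, 1.94 and 2.92 after LPS and -0.79, 2.28, -1.26 and 0.44 after PBS, a log2 difference of 2.59 ± 0.73 (SE). Here PBS array 2 lay within the range of the LPS arrays, and without PBS arrays 2 and 4 the difference was 3.78. The CC chemokine gene *ccl35.1* likewise overlapped through PBS array 2, with -0.41, 2.39, 0.43 and 1.64 on the LPS arrays and -1.91, -0.09, -2.34 and -0.78 on the PBS arrays (2.29 ± 0.71, SE). *ifng1*, which encodes interferon γ, was well above background on 3 LPS arrays and on 0 PBS arrays, at least 2.44-fold higher after LPS. Such a bound sets the mean of the LPS arrays against the lowest signal that counted as well above background on each PBS array, or the probe's own signal there where that was higher.

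Genes of NF-κB and its feedback came next. *nfkbiaa*, which encodes the inhibitor IκBα and is itself a target of NF-κB, stood at 4.37, 5.07, 4.19 and 4.80 after LPS and at 1.97, 3.94, 1.30 and 3.28 after PBS. Every LPS array exceeded every PBS array, by the least against PBS array 2, and the log2 difference was 1.99 ± 0.60 (SE), or 2.98 without PBS arrays 2 and 4. *nfkb2*, the gene of the p100 subunit, varied little within the treatments, with 0.97, 1.08, 0.78 and 1.24 on the LPS arrays and -0.32, 0.34, -0.08 and -0.07 on the PBS arrays. Its difference of 1.05 ± 0.37 (SE) was smaller than that of the cytokines and its groups did not overlap. *socs3b*, an inhibitor of cytokine receptors that signal through JAK and STAT, had 2.88, 4.19, 3.62 and 4.01 after LPS and 2.78, 1.70, 2.53 and 2.34 after PBS (1.34 ± 0.45, SE). Its paralogue *socs3a* overlapped between the groups at 3.82, 4.92, 3.43 and 3.33 on the LPS arrays and 1.68, 4.15, 2.13 and 2.95 on the PBS arrays.

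Transcription factors of the interferon and stress responses were at the high end too. *irf1b*, an interferon regulatory factor, was well above background on all 8 arrays. It stood at 3.73, 4.26, 3.19 and 4.03 after LPS and at -0.30, 1.98, 0.48 and 0.81 after PBS, so the lowest LPS array lay above the highest PBS array, with a log2 difference of 3.06 ± 0.53 (SE; 8.32-fold; adjusted p in limma 0.722). *atf3*, a stress-induced factor that dampens inflammatory genes in mammals, had 0.44, 1.62, 0.13 and 2.01 on the LPS arrays and -2.19, -0.10, -1.98 and -1.30 on the PBS arrays, a difference of 2.45 ± 0.61 (SE). Its LPS arrays 1 and 3 lay only a little above PBS array 2. *batf*, a partner of Jun proteins in lymphocytes, was well above background on all 4 LPS arrays, at -3.86, -3.33, -2.87 and -3.19, and on 0 PBS arrays, at -5.51, -6.16, -5.29 and -5.66. It was at least 1.73-fold higher after LPS, with an adjusted p in limma of 0.722, and the groups did not overlap. When all 24 arrays were fitted together as 6 groups, *batf* passed the threshold (adjusted p 0.0335 in limma), 1 of 6 probes (0.0141%) that did. The smallest adjusted p of that fit, 0.00241 in limma, fell on probes with no gene name.

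Further genes known from activated leukocytes or from the response to cytokines followed. Among markers of the leukocytes themselves, 4 of 11 tested genes of the neutrophil list lay above 0 (median -0.27). In the macrophage and dendritic cell list 5 of 15 did (median -0.57), where 44.7% of all genes did. The signs of these medians rest on the arrays used. On the slide that held 2 arrays of each treatment the medians were 0.58 and 0.10, and without PBS array 4 the neutrophil median was 0.29. *acod1* encodes the enzyme that makes itaconate in macrophages. It had -0.98, 0.56, -1.79 and -0.66 after LPS and -3.58, -3.20, -3.56 and -3.57 after PBS, the PBS arrays lying within a narrow range and 2 of them well above background, with a log2 difference of 2.76 ± 0.51 (SE). *steap4*, a metalloreductase that inflammatory cytokines induce in mammals, measured 1.82, 2.65, 1.39 and 3.68 on the LPS arrays and -0.59, 0.46, -1.42 and 0.88 on the PBS arrays, which did not overlap (2.55 ± 0.65, SE). *gpr84*, a receptor for medium-chain fatty acids on mammalian phagocytes, had -1.07, 0.42, -1.26 and -1.12 after LPS and -4.30, -1.96, -3.20 and -2.19 after PBS. It had 2 probes with log2 differences of 2.16 and 4.21, and the second passed the threshold in the fit of 6 groups (adjusted p 0.0138). *cd83*, a surface protein of activated dendritic cells, had -2.88, -1.43, -2.74 and -0.27 on the LPS arrays and -4.93, -2.83, -5.95 and -5.01 on the PBS arrays, with PBS array 2 inside the LPS range.

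Beside these stood genes with no part in inflammation that is generally known, and 1 with no name. *cryba1a*, which encodes a crystallin of the eye lens, had the largest log2 difference of the 20, 3.93 ± 0.77 (SE), with -0.52, 1.88, -1.93 and 0.58 on the LPS arrays and -4.99, -3.00, -3.97 and -3.73 on the PBS arrays. *gcga*, the gene of the pancreatic hormone glucagon, was well above background on all 8 arrays at 1.79, 3.01, 1.15 and 0.70 after LPS and -0.17, -0.73, -2.07 and 0.23 after PBS. Its highest value fell on LPS array 2, where the level of the exocrine pancreas list was also highest, at 3.97. That list stood at -1.21 to 2.31 on the other LPS arrays and at 1.04 to 3.26 on the PBS arrays. On other arrays the levels did not go together. LPS array 1 had the next highest *gcga* value, 1.79, but the lowest pancreas level of all, -1.21. PBS array 1 had the highest pancreas level of the PBS arrays, 3.26, with *gcga* at -0.17. The part of such tissue in the result was not tested. *atl1*, a GTPase that shapes the endoplasmic reticulum, was well above background on 4 LPS and 0 PBS arrays on the probe that represents it. By that probe it was at least 4.13-fold higher after LPS. Its 2 probes had log2 differences of 2.56 and 0.68, so the bound does not hold for both. The first gene of the whole ranking, *LOC567472*, for which the annotation gives no name, stood at -3.30, -1.22, -2.39 and -3.27 on the LPS arrays and at -5.59, -6.09, -6.66 and -5.48 on the PBS arrays, none of which was well above background, and was at least 2.95-fold higher. Its log2 difference was 4.50 ± 0.49 (SE) in the liver, where it passed the adjusted threshold in limma (adjusted p 0.00523), and 4.91 ± 0.78 in the kidney. Others of the 20 were *spata18*, whose mammalian product acts in the upkeep of mitochondria, at -1.30, -0.82, -0.61 and 0.27 on the LPS arrays and -1.45, -2.22, -3.47 and -2.86 on the PBS arrays, and *frem2b* and *klhl4*. These last 2 were well above background on 2 and 1 of the LPS arrays and on 0 PBS arrays, so no fold is given for them.

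How far a whole group of genes shared these differences was described with 15 gene lists, set beside all genes tested, of which 0.819% were higher and 1.69% lower at an unadjusted p under 0.05 and the median difference was -0.09. The list with the highest median of the 15 was that of NF-κB subunits, kinases and feedback inhibitors. Of its 20 tested members 18 lay above 0, 3 were higher at an unadjusted p under 0.05 (*nfkbiaa*, *nfkb2* and *socs3b*) and 0 lower, and the median was 0.53, or 0.88 without PBS arrays 2 and 4. The groups did not overlap for 4 members, the fourth being *ikbkg*, the scaffold subunit of the kinase that frees NF-κB, whose difference was only 0.37 ± 0.36 (SE). The mean level of the list was 0.48 to 0.94 on the LPS arrays and -0.30 to 0.50 on the PBS arrays.

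Signalling by CD40 and the other receptors of the TNF receptor family gave the next highest median, 0.47 over 25 tested members, of which 19 lay above 0, 3 were higher at an unadjusted p under 0.05 and 0 lower. Without PBS arrays 2 and 4 the median was 0.85. This list shares *nfkb2* and other subunits and kinases with the NF-κB list, so the counts of the 2 lists are not independent. Among its own members the adaptor gene *traf3* stood at -1.42, -2.47, -2.40 and -1.70 on the LPS arrays and -2.69, -3.51, -3.34 and -3.38 on the PBS arrays, without overlap (1.23 ± 0.42, SE). *traf6*, the adaptor that CD40 and Toll-like receptors share, had -0.18, -1.15, 0.08 and -0.57 after LPS and -0.87, -3.77, -1.15 and -1.64 after PBS, overlapping through LPS array 2 and PBS array 1 and with PBS array 2 far below the rest. The *traf6* difference was 1.40, or 0.55 without PBS arrays 2 and 4. *tnfrsf9a*, a costimulatory receptor gene, overlapped at 1.01, 3.26, 1.56 and 1.80 on the LPS arrays and -0.68, 2.08, -0.27 and 0.46 on the PBS arrays. The receptor gene *cd40* itself, looked at after its values were seen, stood at -3.53, -1.97, -3.24 and -2.98 after LPS and -5.09, -2.65, -5.56 and -3.10 after PBS (1.17 ± 0.70, SE). It overlapped through PBS arrays 2 and 4 alone, and without them the difference was 2.396.

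Of 17 tested cytokine genes 4 were higher at an unadjusted p under 0.05 (*il1b*, *tnfa*, *ifng1* and, named after its values were seen, *csf3b*, a granulocyte colony-stimulating factor gene) and *il26* was lower, 8 lay above 0, and the median was -0.12, or 0.45 without PBS arrays 2 and 4 and 0.14 without PBS array 2 alone, so its sign rests on these arrays. Only 18 of the 28 listed cytokine genes and 26 of the 49 listed chemokine and receptor genes matched a probe by name. *il6*, *cxcl8a* and *cxcl11.1*, which the study names for the response of all tissues, did not. The medians thus cover a part of each family. Chemokines and their receptors had a median of -0.42, or 0.03 without PBS arrays 2 and 4. The difference between treatments over the 8 arrays lay above 0 for 6 of 26 members. At an unadjusted p under 0.05 the 2 named above were higher and 3 lower. The lower 3 were *cxcr4b*, which encodes the receptor of Cxcl12 and stood at 1.91, 2.3, 1.67 and 1.32 on the LPS arrays and 3.16, 4.74, 2.53 and 3.53 on the PBS arrays (-1.69 ± 0.52, SE), the chemokine gene *ccl25b*, and *ccl27a*. *ccl25b* had 1.95, 2.5, 1.91 and 1.63 on the LPS arrays and 2.53, 4.71 and 3.61 on 3 PBS arrays, its spot on PBS array 4 being left out as an outlier, and *ccl27a* had 0.69, 0.73, 1.57 and 0.14 after LPS and 1.07, 4.79, 3.00 and 2.39 after PBS. For *cxcr4b*, *ccl25b* and *ccl27a* PBS array 2 was the highest of all. Without PBS arrays 2 and 4 the differences of *cxcr4b* and *ccl27a* were -1.05 and -1.25. That of *ccl25b* was -1.62, or -1.07 without PBS array 2. *ccl34a.4*, a chemokine gene that the study names for the response of all tissues, overlapped between the groups at 0.14, 3.08, 1.32 and 1.89 on the LPS arrays and -1.14, 1.50, -0.49 and 0.70 on the PBS arrays. The *ccl34a.4* difference was 1.47, or 2.42 without PBS arrays 2 and 4.

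Upstream, the receptors and adaptors of Toll-like and interleukin 1 signalling had a median of -0.09 over 22 tested members, or 0.19 without PBS arrays 2 and 4. The difference between treatments over the 8 arrays lay above 0 for 9 members, and 2 were higher at an unadjusted p under 0.05. Those were *traf3*, already described, and *card9*, an adaptor of pattern receptors, at 0.14, 1.72, -0.21 and 0.25 after LPS and -2.38, 0.00, -2.78 and -0.86 after PBS. The *card9* difference was 1.98, or 3.06 without PBS arrays 2 and 4. *myd88*, the adaptor that most of these receptors use, stood at -0.61, -0.91, 0.02 and -0.08 on the LPS arrays and 0.03, 0.20, -0.46 and -0.92 on the PBS arrays, a difference of -0.11 ± 0.43 (SE) that lay well inside the spread of either group. Interferon factors and interferon-stimulated genes had a median of 0.06, with 14 of 27 members above 0, 2 higher and 1 lower at an unadjusted p under 0.05. Beside *irf1b* the higher one was *irf8*, a factor of the macrophage lineage, at 0.56, 2.78, 1.02 and 1.26 on the LPS arrays and -0.92, 0.88, -1.33 and 0.24 on the PBS arrays, and the lower one was *ifit8*, which was not well above background on any array. The *irf8* difference was 1.69, or 2.53 without PBS arrays 2 and 4. Without PBS arrays 2 and 4 the median of this list was 0.98. Immediate-early factors of the AP-1, ATF, EGR and C/EBP families had a median of 0.16, or 0.64 without PBS arrays 2 and 4, with 21 of 33 members above 0 and *atf3* and *batf* higher at an unadjusted p under 0.05. *cebpb*, a factor of the acute-phase response, had 3.89, 4.53, 3.56 and 4.77 after LPS and 2.98, 3.62, 1.76 and 3.92 after PBS, and *junba*, a subunit of AP-1, had -1.33, -0.97, -1.62 and -0.97 after LPS and -1.92, -1.22, -2.65 and -0.96 after PBS, and both overlapped.

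Immune effector enzymes and antimicrobial proteins gave the largest number of members below the unadjusted threshold of 0.05, 10 higher and 1 lower among 38, while the median was 0.00 (0.70 without PBS arrays 2 and 4) and 19 lay above 0. *ncf1*, a cytosolic subunit of the phagocyte NADPH oxidase, had 1.05, 3.21, 1.54 and 1.70 on the LPS arrays and -0.36, 1.24, -0.69 and 0.47 on the PBS arrays, overlapping through PBS array 2 (1.71 ± 0.60, SE). *timp2b*, an inhibitor of matrix metalloproteinases, had 1.32, 3.25, 1.45 and 1.14 after LPS and -1.52, 1.17, -0.87 and 0.25 after PBS (2.03 ± 0.68, SE). The *timp2b* difference was 2.98 without PBS arrays 2 and 4. *hamp*, whose product hepcidin is the iron hormone of the liver and which was looked at after its values were seen, stood at 0.48, 1.46, 0.60 and 5.18 on the LPS arrays and -3.59, 0.39, 0.29 and -3.38 on the PBS arrays. Its highest value by far fell on LPS array 4, the array on which the hepatocyte list stood at 5.17. That list stood at 1.17 to 1.71 on LPS arrays 1 to 3 and at 1.90 to 3.48 on the PBS arrays. The log2 difference of *hamp* was 3.50 on all 8 arrays and 2.42 without LPS array 4, and the part of liver RNA in the result was not tested. The groups did not overlap. The other higher members were *acod1* and *steap4*, described above, *noxo1a*, an organizer of NADPH oxidase that was well above background on 4 LPS and 0 PBS arrays and at least 1.98-fold higher, and, named after their values were seen, *ch25h*, *nos2b*, *pglyrp5* and *plaua*. The probes of *noxo1a* differed in sign. The lower member was *hmox1a*, the haem-degrading enzyme, at -3.10, -0.22, -2.18 and -1.51 after LPS and -0.77, 0.11, -0.84 and 1.08 after PBS. The *hmox1a* difference was -1.65, or -0.95 without PBS arrays 2 and 4. The levels of the marker lists of the leukocytes that make such proteins had exact permutation p of 0.8 (neutrophils) and 0.714 (macrophages), two-sided. The neutrophil level was -1.29 to 0.96 on the LPS arrays and -1.42 to 0.27 on the PBS arrays with 4 of 11 genes above 0, and the macrophage and dendritic cell level was -0.33 to 0.97 on the LPS arrays and -0.51 to 1.32 on the PBS arrays with 5 of 15 above 0.

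**Figure D3:**
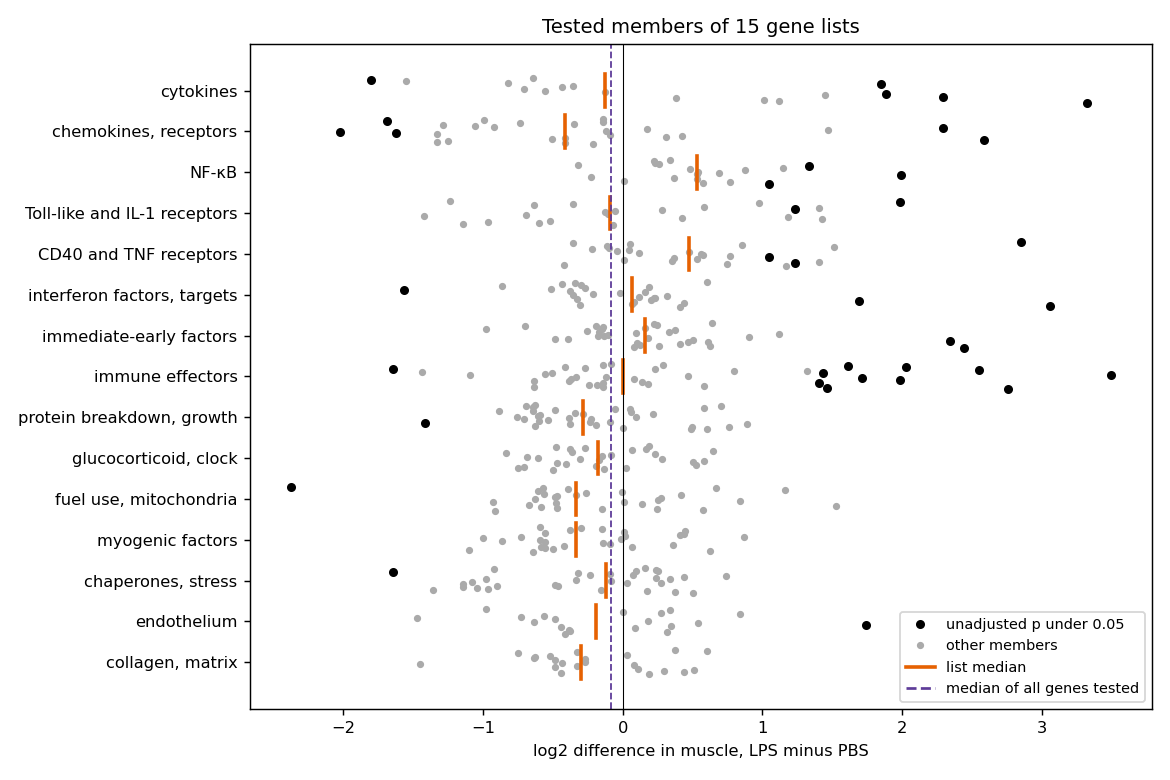
Log2 difference in muscle, LPS minus PBS, of every tested member of 15 gene lists (points, black where the unadjusted p was under 0.05), with the median of each list as an orange bar. The medians of the NF-κB list (0.53) and the CD40 list (0.47) lie furthest to the right, and that of the chemokine list (-0.42) furthest to the left. The medians of the cytokine (-0.12), Toll-like (-0.09) and muscle lists also lie below 0, as does that of all genes (-0.09).

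The lists on the muscle fibre itself had medians below that of all genes. Of 35 tested members of the list on protein breakdown and growth control, 11 lay above 0, 0 were higher and 1 was lower at an unadjusted p under 0.05, and the median was -0.29. The lower one was *fbxl22*, an F-box protein of the sarcomere's Z-disc in mammals, at -3.25, -1.82, -2.41 and -3.08 on the LPS arrays and -1.69, -0.82, -1.66 and -0.71 on the PBS arrays, without overlap (-1.42 ± 0.47, SE). The muscle ubiquitin ligases that mark atrophy in mammals, were looked at after their values were seen. *fbxo32* (atrogin-1) had 2.14, 2.80, 2.98 and 2.45 after LPS and 2.41, 1.47, 2.69 and 1.85 after PBS, which overlapped, a difference of 0.49 ± 0.43 (SE) that was 0.04 without PBS arrays 2 and 4. *trim63a* (MuRF1) had 0.28, 1.78, 1.06 and -1.17 after LPS and -1.37, 1.42, -1.92 and 1.40 after PBS (0.60 ± 0.90, SE). It overlapped through PBS arrays 2 and 4 alone, and without them every LPS array lay above both PBS arrays, with a difference of 2.13.

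Glycolysis, fuel use and mitochondria had a median of -0.34 over 29 tested members, 11 further ones having been removed because their raw signal lay above the upper limit of the filter. The one member below the unadjusted threshold was *cd36*, a fatty acid carrier, which was well above background on 0 LPS arrays and 2 PBS arrays and at least 2.64-fold lower after LPS. *tpi1a*, a glycolytic isomerase, had 2.45, 1.17, 1.49 and 1.60 on the LPS arrays and 0.93, -1.55, 2.09 and -0.88 on the PBS arrays, with PBS arrays 2 and 4 alone below 0, and its difference was 1.53 ± 0.75 (SE) with these 2 arrays and 0.16 without them. Myogenic factors and satellite cell genes (median -0.34 over 28), glucocorticoid targets and clock genes (-0.18 over 28) and collagen and matrix genes (-0.30 over 22) had 0 members below the unadjusted threshold in either direction. Chaperones and stress-response genes had 1 lower member among 32, *hmox1a* (median -0.12). In the list on endothelial activation (median -0.19 over 20) the 1 higher member was *vcam1b*, an adhesion molecule of activated vessels, at -1.78, 0.59, -0.81 and -0.36 after LPS and -2.85, -2.26, -2.91 and -1.28 after PBS (1.74 ± 0.59, SE). Without PBS arrays 2 and 4 the medians of these muscle and tissue lists, other than the chaperones, lay above 0, where the median of all probes was 0.06, for example 0.24 for protein breakdown, 0.18 for fuel use and 0.40 for myogenic factors. The fast muscle level of PBS array 4 was the highest of all 8.

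Only 5 of the 20 genes at the low end of the ranking were well above background on all 8 arrays. The first was *slc17a7a*, a vesicular glutamate transporter of nerve endings, at -2.36, -2.09, -3.14 and -2.86 on the LPS arrays and -1.04, 0.47, -0.56 and -0.85 on the PBS arrays. The groups did not overlap and the log2 difference was -2.12 ± 0.47 (SE), with an adjusted p in limma of 0.916. *pde6ha*, a phosphodiesterase subunit of cone photoreceptors, had -0.93, -0.88, -0.21 and -0.79 after LPS and 1.06, 0.39, 1.19 and 0.53 after PBS (-1.49 ± 0.40, SE). *rnasekb*, a ribonuclease κ gene, stood at -1.90, -1.08, -2.09 and -1.78 on the LPS arrays and -0.72, -0.09, -0.54 and -0.42 on the PBS arrays (-1.27 ± 0.40, SE). *cxcr4b* is described above. The fifth was *hbaa2*, an adult α-globin gene, with 2.16, 2.59, 2.56 and 2.23 after LPS and 3.33, 4.34, 3.58 and 4.42 after PBS (-1.53 ± 0.41, SE).

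The adult β-globin gene *hbba2* gave a like picture at 1.33, 1.80, 1.97 and 1.28 on the LPS arrays and 2.31, 3.70, 2.36 and 3.75 on the PBS arrays (-1.43 ± 0.48, SE). For both globins PBS arrays 2 and 4 were the highest, and without them the differences were -1.07 and -0.74. Near-identical copies of the adult globin genes lie side by side in fish genomes, so such probes may read more than 1 copy. Over the whole red blood cell list 5 of 15 tested genes lay above 0 and 2 were lower at an unadjusted p under 0.05, both of them globins. *alas2*, the first enzyme of haem synthesis in red cells, had -0.02, 0.17, 0.02 and -0.11 after LPS and 0.17, 2.11, -0.15 and 1.49 after PBS, a difference of -0.89 ± 0.54 (SE) that was 0.0047 without PBS arrays 2 and 4.

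Of the other genes at the low end, *rnasel4* of the ribonuclease A family was well above background on 0 LPS arrays and 3 PBS arrays and at least 2.43-fold lower after LPS. The bounds were 1.55-fold for the tight junction gene *cldn15a*, 1.52-fold for the cytochrome P450 gene *cyp2x9* and 1.26-fold for *si:ch211-163b2.4*, each well above background on 0 LPS arrays and 1 PBS array. The cytokine gene *il26* was also seen on 1 PBS array alone, but its bound was not above 1. *msx2a*, a homeobox gene, was well above background on 1 LPS array and all 4 PBS arrays, at -4.57, -4.50, -4.13 and -5.16 after LPS and -2.68, -1.70, -3.80 and -2.71 after PBS. *tmtopsa*, an opsin found in many fish tissues, had the same detection, at -3.53, -4.09, -5.26 and -5.80 on the LPS arrays and -2.94, -2.70, -3.02 and -2.70 on the PBS arrays. *nrxn3b*, a synaptic neurexin, and *rassf2b*, of a family of Ras-binding proteins, were seen on all PBS arrays and on 3 and 2 LPS arrays. *LOC565422* and *sla1a* were seen on 1 LPS array each and on 2 and 3 PBS arrays. The last 4 of the 20, *nitr4a*, *porcn*, *ifit8* and *lrata*, were not well above background on any muscle array, so no fold is given for them.

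This difference in detection ran through the whole ranking. Of the genes tested, 7924 were well above background on all 8 arrays, 3222 on 1 to 7 and 936 on none. The 936 had a median log2 difference of -0.55, 8.33% of them lay above 0, and at an unadjusted p under 0.05 they held 0 higher and 39 lower genes. Their median log2 signal was 3.36 to 4.59 on the LPS arrays and 2.92 to 4.16 on the PBS arrays before the percentile was subtracted, and -6.54 to -6.15 on the LPS arrays and -6.59 to -4.92 on the PBS arrays after it. Among the 7924 genes seen on all arrays the median was -0.04, and 36 were higher (0.454%) and 94 lower (1.19%) at that threshold, while 44 (0.555%) lay wholly above and 127 (1.6%) wholly below the PBS arrays. In the highest 200 genes 84 were seen on all arrays and 0 on none, and in the lowest 200 the counts were 92 and 39. Of the 20 highest genes 8 were seen on all 8 arrays: *irf1b*, *atf3*, *steap4*, *gcga*, *cxcl18b*, *spata18*, *nfkbiaa* and *ccl35.1*.

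**Figure D4:**
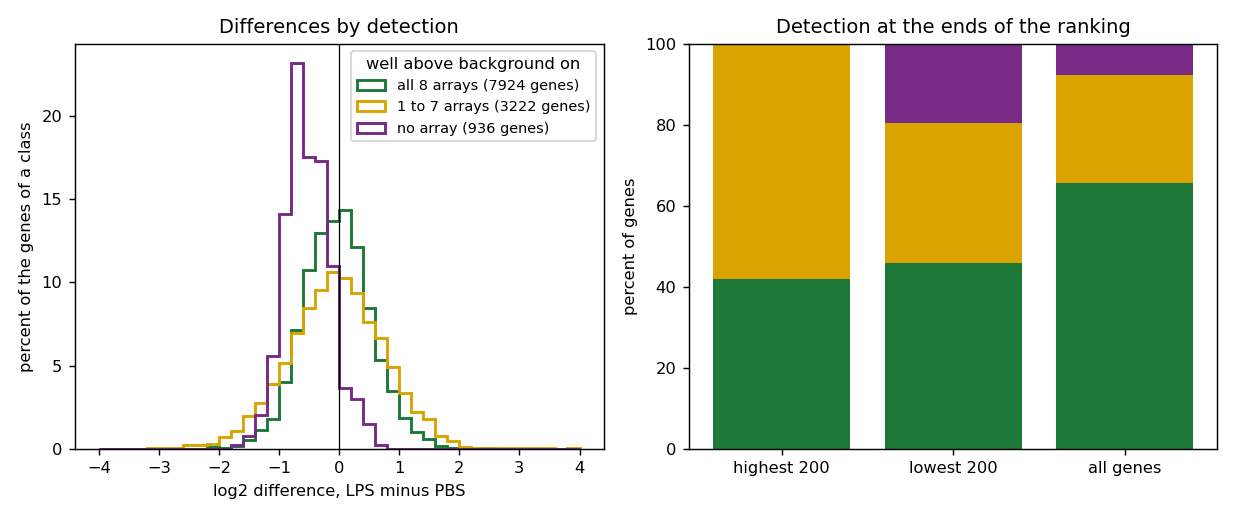
Left, distribution of the log2 difference, LPS minus PBS, in percent of the genes of each class, for genes well above background on all 8 muscle arrays, on 1 to 7 and on none; right, the share of the same 3 classes, in the same colours, among the highest 200, the lowest 200 and all genes of the ranking. Genes seen on no array centre at -0.55 and appear in the lowest 200 (39 genes) but not in the highest 200.

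The genes at the high end of the muscle ranking were set beside the same contrast in the liver and kidney, whose arrays are different hybridisations but may come from the same fish. Of the highest 20 genes in muscle, 12 were higher in the liver and 13 in the kidney at an unadjusted p under 0.05, where 7.19% and 3.47% of all genes were. Their median log2 difference was 2.398 in the muscle, 3.73 in the liver and 3.39 in the kidney. Since these genes were chosen on the muscle arrays, their muscle values are descriptions. Further down the ranking the liver values went both ways. Of the highest 100 genes 34 were higher and 13 lower in the liver (median 0.23), and 35 higher and 0 lower in the kidney (0.86). Of the highest 200, 43 were higher and 36 lower in the liver (-0.20), and 41 higher and 1 lower in the kidney (0.42). *il1b* differed by 3.32 ± 0.62 (SE) in the muscle, 5.53 ± 0.49 in the liver and 7.13 ± 0.58 in the kidney, and *irf1b* by 3.06 ± 0.53 in the muscle, 3.69 ± 0.68 in the liver and 4.20 ± 0.59 in the kidney. The value of *batf* was 0.22 ± 0.45 in the liver and 3.57 ± 0.40 in the kidney. The crystallin gene *cryba1a* (0.71 ± 0.66 in the liver, 2.34 ± 1.24 in the kidney), *atl1* (-0.50 ± 0.63 and 0.77 ± 0.92, in the same order of tissues) and *frem2b* (-0.32 ± 0.56 and -0.67 ± 0.48) did not pass this threshold in either. At the low end 0 of 19 genes tested in the liver and 3 of 18 tested in the kidney were lower, against a background of 11.5% and 2.83%.

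In the other direction, the liver fit called 68 genes higher after LPS at an adjusted p under 0.05 in limma (0.552% of those tested), and 67 of them were tested in the muscle. There 57 lay above 0, 21 were higher and 1 was lower at an unadjusted p under 0.05, and 12 did not overlap between treatments. The median log2 difference of these genes was 0.87 in the muscle and 3.29 in the liver. Of all genes tested in the muscle, 44.7% lay above 0 and the median was -0.09. At the same unadjusted threshold 0.819% of all genes were higher and 1.69% lower, and 0.604% were higher without overlap. Of 11 genes called higher in the kidney (0.0891%) 10 were tested in the muscle, with 7 above 0 and 6 higher at an unadjusted p under 0.05, and medians of 1.45 in the muscle and 4.33 in the kidney. The 14 genes called lower in the liver (0.114%) had a median of 0.41 in the muscle, with 10 above 0. The oocyte level separated the liver treatments, at 0.55 to 3.44 on the liver PBS arrays and -0.69 to 0.37 on the liver LPS arrays. The part of oocyte RNA in the liver results was not tested. Since the liver and kidney genes were chosen in those tissues, their medians there are descriptions.

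Whether the muscle response differed from the others was tested in 1 fit of the 6 groups. The muscle difference minus the mean of the liver and kidney differences gave 0 genes that passed the adjusted threshold in limma. With the pool as a random block, since the tissues may come from the same fish (correlation 0.236), 3 genes passed, *npsn*, *plekhs1.3* and *higd1a*, each with a muscle difference below the mean of the others. In the fit without this block the smallest adjusted p in limma was 0.278. Before adjustment 4981 of the 42434 probes were below 0.05, more than this threshold would pass if no probe differed. The count of 0 genes thus does not show that the tissues responded alike. Against the kidney alone 0 genes were called (5346 probes unadjusted, smallest adjusted p 0.0833). Against the liver alone (5598 probes unadjusted) 1 probe was called (0.00236% of those tested), that of *npsn*, which encodes a neutrophil metalloproteinase. On the probe called, it averaged -3.46 on the muscle LPS arrays and -1.15 on the muscle PBS arrays, and -1.22 on the liver LPS arrays and -3.93 on the liver PBS arrays, so the muscle difference was 5.03 ± 0.74 (SE) log2 units below that of the liver (adjusted p in limma 0.0339). On the probe that represents the gene elsewhere here, *npsn* stood at -2.99, -1.34, -2.95 and -2.44 on the muscle LPS arrays and 0.12, -0.98, -2.58 and 0.47 on the muscle PBS arrays, and the difference from the liver had an adjusted p of 0.32 in limma.

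**Figure D5:**
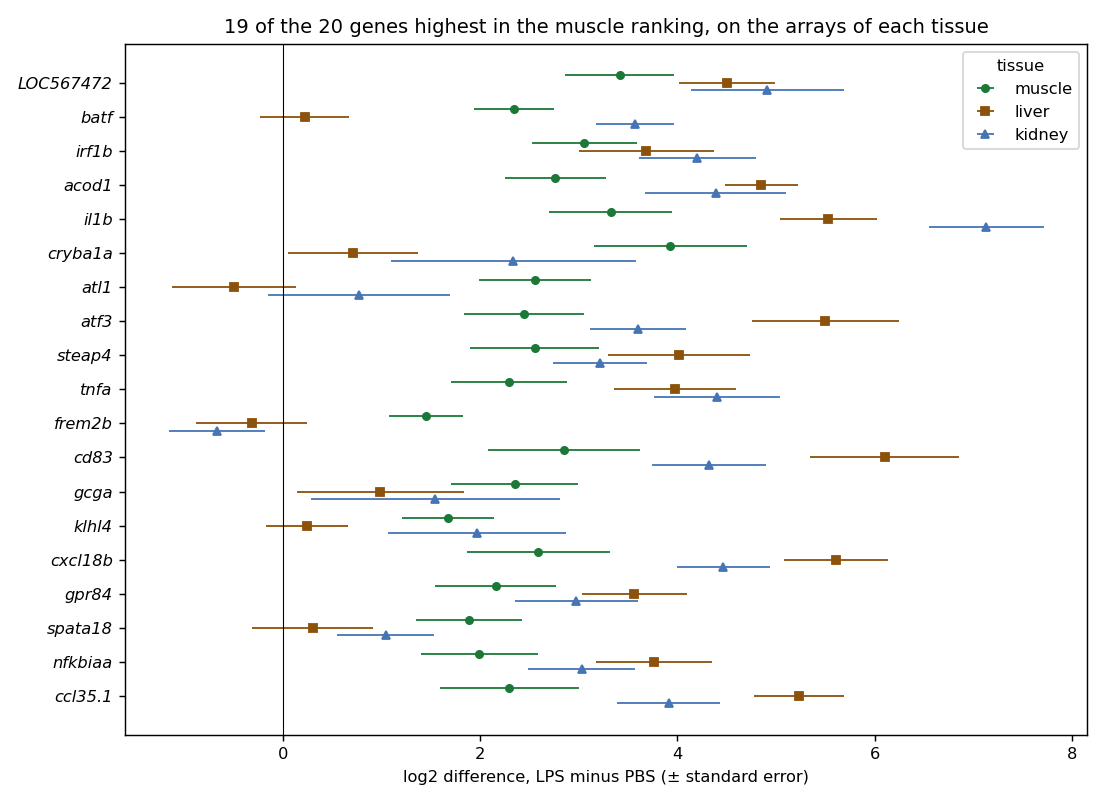
Log2 difference, LPS minus PBS, with its standard error for 19 of the 20 highest genes of the muscle ranking (rows) in muscle, liver and kidney (colours). Most inflammatory genes lie further right in liver and kidney (medians 3.73 and 3.39 over the 20 genes) than in muscle (2.398), while *cryba1a*, *atl1*, *frem2b*, *gcga* and *spata18* lie furthest right in muscle. The genes were chosen for high values in muscle, so their muscle values are descriptions, and no gene shown was called for a difference between tissues.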

How the data were processed

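The 8 muscle arrays were 1-colour Agilent arrays with Cy3. The authors deposited 1 file per array with the background-corrected intensity of each spot, made by Feature Extraction (version 10.4.0.0 per the submitters' processing notes, 10.7.3.1 in the file headers), and a table of log2 values. In the deposited table each log2 value carries the authors' percentile shift and a constant for its probe, whose origin is not given in the sources used here. Its muscle columns have medians of -0.635 to -0.0214, and differences between its columns were within 0.05 of those computed here for 100% of probes. Here the log2 of the processed signal of 43803 spots was taken, outlier spots were left out, each array was shifted by its 75th percentile, and spots of a probe were averaged (43603 probes). Names came from RefSeq accessions matched to a table for the assembly GRCz12tu, used for names only: 25069 probes matched a symbol, for 12858 genes. A gene was represented by its probe with the highest mean over the 24 arrays.

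As in the study's methods, probes between the 20th and 95th percentile of raw signal were kept, here on at least 1 of the 8 arrays. The 4 LPS arrays were tested against the 4 PBS arrays by lmFit and eBayes of limma 3.58.1 (R 4.3.3), with Benjamini-Hochberg adjustment over all probes tested and a threshold of 0.05. The muscle difference was set against those of liver and kidney as an interaction in a fit of 6 groups. Marker levels were compared by exact permutation tests in scipy 1.17.1. The number of arrays limits the precision (median residual SD 0.816 log2 units), and p-values measure the spread between pools. Scripts were tested on simulated data.

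The genes named were the 20 at each end of the ranking, up to 4 members of each list with the smallest p, members of the signalling lists without overlap between treatments, and genes the study names over all tissues where a probe matched. No probe matched *cxcl8a*, *il6*, *cxcl11.1*, *irak3* or *socs1b*, which the study also names. From the ranking, 1 gene is counted but not reported here. The arrays and gene lists were chosen with earlier results of these data known. Alternatives were other normalizations (50th percentile, quantile, normexp with an offset of 50, for which the median spot signal was used), filters, blocks for slide, scan date and replicate number, array weights, covariates, a mean over the probes of a gene, the authors' table, and each array left out.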

Additional observations from a re-analysis of the deposited data

Results flagged for a closer look

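Of 243 groups of 4 muscle arrays examined, over the named genes and the gene lists, 8 had 1 array far from the other 3, by the 95% critical value of Dixon's test, which sets the gap to the nearest array against the group's range, and chance flags about 1 in 20 groups. LPS array 2 was that array in 6 of the 8. It stood at 0.42 for *gpr84*, the others lying between -1.26 and -1.07 (gap 0.886 of the range), at 3.25 for *timp2b* (others 1.14 to 1.45, gap 0.853) and at 0.05 for the macrophage gene *mpeg1.1* (others -1.66 to -1.49, gap 0.904). It also stood highest for 3 list levels, the cytokines at -1.85 (others -2.93 to -2.75, gap 0.836), the interferon list at 0.24 (others -0.47 to -0.41, gap 0.917) and the testis markers at 0.79 (others -3.06 to -2.67, gap 0.898). LPS array 4 stood at 5.17 for the hepatocyte markers (others 1.17 to 1.71, gap 0.866). PBS array 2 stood at -3.20 for *acod1*, the other PBS arrays lying between -3.58 and -3.56 (gap 0.956).

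The muscle difference of *npsn*, LPS minus PBS, lay below its liver difference by the interaction test in limma, with a value of -5.03 on the log2 scale (adjusted p 0.0339) on 1 of its probes.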

How the results depend on the processing

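The count of muscle genes past the adjusted threshold was 0 under every alternative except the fit of all 24 arrays as 6 groups, which called 2 (*batf* and *gpr84*). It was 0 whichever array was left out (lowest and highest count 0) and with the replicate number as a block, where the smallest adjusted p in limma was 0.794. Arrays of the same replicate number did not deviate together throughout (r = 0.02, 0.33, 0.16 and -0.27), and these values do not settle whether the numbers pair them. Without PBS arrays 2 and 4, an alternative chosen after seeing the data like the fast muscle covariate, the count was 0 and the smallest adjusted p 0.0936. The count for muscle against liver and kidney, 0 as reported, was 2 under quantile normalization (*plekhs1.3* and *higd1a*), 3 with the pool as a random block (*npsn* as well) and 1 with muscle and liver alone (*npsn*).

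Of 2558 values of 89 genes under alternatives, 2551 kept their direction and side of the threshold. Many of these genes were chosen for their values on these arrays and 0 passed the threshold, so this count is no separate support. It also leaves out size. The lowest value of *batf* was 0.48, under normexp, in place of 2.34. Under normexp *il1b* was 1.93 in place of 3.32, *tnfa* 0.90 in place of 2.29 and *LOC567472* 1.01 in place of 3.41. Likewise *nos2b* was 0.17 in place of 1.40 and *plaua* 0.18 in place of 1.61. The lowest value of *irf1b* was 2.63, with the slide as a fixed block, in place of 3.06. The sign turned for *myd88* within the slide of 2 arrays of each treatment (0.25) and without LPS array 2 (0.0661) or PBS array 2 (0.0571), with a range of -0.32 to 0.0661 over single arrays left out, for *trim63a* without PBS array 3 (-0.0027, range up to 1.15), and without PBS arrays 2 and 4 for *psmb9a* (0.23) and *alas2* (0.0047). At an unadjusted p under 0.05, 377 probes were higher and 858 lower, against 1502 and 1463 without PBS arrays 2 and 4, 1142 and 2926 without PBS array 3, 1609 and 2893 with array weights, 797 and 950 with the oocyte level as a covariate and 298 and 136 on the slide of 2 and 2. The highest 20 genes stayed among the highest 100 more often than the lowest 20 among the lowest 100, with 19 to 20 against 17 to 20 over single arrays left out, and 16 against 7 under normexp, where the cause was not tested. Of the genes tested, 936 were well above background on 0 of the 8 arrays, and for these no fold is given.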

Other observations

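Genes of the germ line were among the oocyte markers of the muscle arrays. Of 29 tested oocyte genes 27 lay above 0 with a median of 0.99, and 0 passed an unadjusted p of 0.05, while without PBS arrays 2 and 4 the median was -0.47. *tdrd1*, a Tudor protein of germ cells, stood at 3.34, 3.17, 3.06 and 3.44 on the LPS arrays and 3.00, 1.49, 3.32 and 1.79 on the PBS arrays. The *tdrd1* difference was 0.85, or 0.09 without PBS arrays 2 and 4. *ddx4*, the germ cell helicase Vasa, had 0.14, -1.09, -1.10 and -0.65 after LPS and -1.49, -2.92, -1.06 and -1.67 after PBS. With the oocyte level as a covariate 0 named genes passed the adjusted threshold in limma, though the smallest adjusted p over all probes, those without a gene name included, was 0.0359, and all of the highest 20 and all of the lowest 20 genes remained among the 100 at their end of the ranking.

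Other tissue lists had medians below that of all genes, such as the intestine at -1.04 over 20 genes and skin epidermis at -0.69 over 10. *agr2*, a gene of mucus-secreting cells, stood at 1.24, 1.56, 1.31 and 0.43 on the LPS arrays and 1.62, 3.56, 1.46 and 3.32 on the PBS arrays, with PBS arrays 2 and 4 the highest. The *agr2* difference was -1.35, or -0.40 without these 2 arrays. *fabp2*, an intestinal fatty acid carrier, had -3.82, 0.25, -2.40 and -2.75 after LPS and 1.59, -1.35, 0.41 and -1.08 after PBS. *tnnc1b*, a slow troponin C gene, stood at 2.80, 3.60, 2.82 and 1.58 on the LPS arrays and 3.65, 4.42, 2.15 and 5.78 on the PBS arrays, and the slow muscle list had a median of -0.75 over 15 genes, with 3 above 0. Without PBS arrays 2 and 4 the *tnnc1b* difference was -0.20 in place of -1.30 and the slow muscle median was 0.13.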
